A study of Mus musculus with 9 samples.

Results

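Hepatic stellate cells were followed through 10 genes that mark them in liver: Lrat, Rgs5, Des, Pdgfrb, Reln, Hgf, Cygb, Nes, Ngfr and Dcn. Members were taken by gene symbol, and all 10 were found among the 27945 genes with a count and passed the filter on low counts, which kept 18113 genes for testing. Polyadenylated RNA of mouse liver had been sequenced in 9 libraries (3 with the label control, 3 with model, 3 with treated) for a series titled for liver damage by gefitinib, an inhibitor of the epidermal growth factor receptor kinase. The labels give treatment as control, model or treated and no more: the agent, dose and time behind the model and treated groups, and the strain, sex and age of the mice, are not stated. Titles speak of liver cells and the source of liver, so whole tissue and isolated cells cannot be told apart. Nothing ties the 3 libraries of a group to separate animals, and p-values then measure only the spread between these libraries, which may be technical.

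Stellate cells lie between the sinusoidal endothelium and the hepatocytes. At rest they store vitamin A as retinyl esters in lipid droplets and wrap the sinusoids as pericytes. After liver injury they can lose these droplets, divide in response to platelet-derived growth factor and turn into myofibroblasts that make collagen, a course known as activation. In RNA of a whole sample, fewer stellate cells and less RNA per cell cannot be told apart.

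Each library held 56440871 to 60665156 estimated counts in all, over 20579 to 21441 detected genes. Levels below are counts scaled to library size (CPM) on TMM-scaled library sizes, and a gene was called at an adjusted p under 0.05 in edgeR. Hepatocyte markers summed to 83930 to 96240 CPM in controls, 85970 to 89830 in model libraries and 69180 to 83530 in treated libraries. Skeletal muscle transcripts set some libraries apart: the 15 muscle markers summed to 236 CPM in model replicate 1 and to 203, 163 and 184 CPM in treated replicates 1 to 3. The same sum was at most 1.75 CPM in the other 5 libraries, where Mb, Myh2 and Tnnc2 were at 0. The 10 stellate cell genes summed to 281, 266 and 227 CPM in the controls, 162, 180 and 169 CPM in the model libraries and 212, 199 and 229 CPM in the treated libraries. Dcn alone made up 42.4% to 50.8% of that sum.

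The bases before the start site are shown for 4 of the 5 members called in a comparison, because 3 of them (Lrat, Rgs5 and Ngfr) fell together in treated against control libraries while Nes rose. RefSeq's table on GRCm38.p6 held such a window for 7 of the 10 members, and none for Cygb, the other called member, which rose. Up to 250 bases are given 5′ to 3′ on the gene's strand, ending before both the RefSeq start and that of the files' annotation. Capitals mark the SP1 box, GGGCGG on either strand. The Lrat window lies at chr3:82903975-82904224 (minus strand), Rgs5 at chr1:169655251-169655500 (plus), Ngfr at chr11:95587736-95587948 (minus) and Nes at chr3:87970843-87971077 (plus).
Lrat: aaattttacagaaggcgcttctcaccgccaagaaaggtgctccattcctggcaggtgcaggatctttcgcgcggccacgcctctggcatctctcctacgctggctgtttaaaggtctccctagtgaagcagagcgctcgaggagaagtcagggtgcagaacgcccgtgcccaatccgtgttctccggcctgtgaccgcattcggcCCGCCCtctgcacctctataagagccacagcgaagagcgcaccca
Rgs5: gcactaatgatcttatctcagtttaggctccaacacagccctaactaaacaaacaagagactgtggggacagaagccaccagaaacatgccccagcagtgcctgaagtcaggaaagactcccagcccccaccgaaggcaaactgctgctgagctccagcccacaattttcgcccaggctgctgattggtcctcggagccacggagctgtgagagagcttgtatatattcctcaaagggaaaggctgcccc
Ngfr: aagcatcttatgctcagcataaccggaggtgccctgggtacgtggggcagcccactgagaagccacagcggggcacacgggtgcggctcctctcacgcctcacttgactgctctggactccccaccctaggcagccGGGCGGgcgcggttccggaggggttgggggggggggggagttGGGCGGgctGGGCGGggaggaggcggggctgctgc
Nes: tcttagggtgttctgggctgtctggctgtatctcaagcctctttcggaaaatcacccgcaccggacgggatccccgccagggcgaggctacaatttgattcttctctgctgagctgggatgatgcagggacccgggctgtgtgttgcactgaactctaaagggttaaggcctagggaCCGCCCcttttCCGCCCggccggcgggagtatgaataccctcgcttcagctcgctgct

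The printed Lrat window held 1 SP1 box, that of Nes 2, that of Ngfr 3 and that of Rgs5 none. Over the full 250 bases, 33.0% of 32536 mouse windows held at least 1. None of the 4 windows held TATAAA (in 12.3% of all windows), TGANTCA, the AP-1 site (6.73%), AGGTCA, the retinoic acid receptor half-site (14.0%), or a CArG box, the serum response factor motif (1.48%), on either strand. G and C made up 59.2% of the Lrat bases, 53.6% of Rgs5, 58.7% of Nes and 70.9% of Ngfr, against a median of 52.4% over all windows. These are matches of letters only.

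The groups were set against each other in 3 comparisons, and each pair of these shares 1 group of libraries.

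In model against control libraries, all 10 genes read lower and none passed the test. Their median log2 fold change was -0.56, against -0.00091 over all genes tested. Of the 10, 6, namely Lrat, Rgs5, Reln, Cygb, Ngfr and Dcn, had every model library below every control library. That pattern was found for 10.2% of all genes tested. edgeR called 1.12% of all genes, 0.519% as higher and 0.596% as lower. Of the members, 6 had an unadjusted p under 0.05, as did 13.9% of all genes. DESeq2 called 4 members lower (Rgs5, Reln, Ngfr and Dcn), and 2.11% of all genes it tested. limma-voom called 0 members. Without model replicate 1, edgeR called Rgs5 (log2 fold change -0.81, adjusted p = 0.0313).

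In treated against model libraries, Cygb and Nes rose and no member fell. Of the members, 8 read higher and 2 (Lrat and Rgs5) lower, with a median log2 fold change of 0.53 against 0.0052 over all genes. edgeR called 9.65% of all genes, 5.21% as higher and 4.44% as lower. Des, Pdgfrb, Cygb and Nes had every treated library above every model library, as did 16.2% of all genes.

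In treated against control libraries, Lrat, Rgs5 and Ngfr fell, and Cygb and Nes rose. Thus 5 of 10 members were called, where edgeR called 17.8% of all genes, 9.36% as higher and 8.47% as lower. The median log2 fold change of the members was -0.12, against -0.0090 over all genes.

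**Figure D1:**
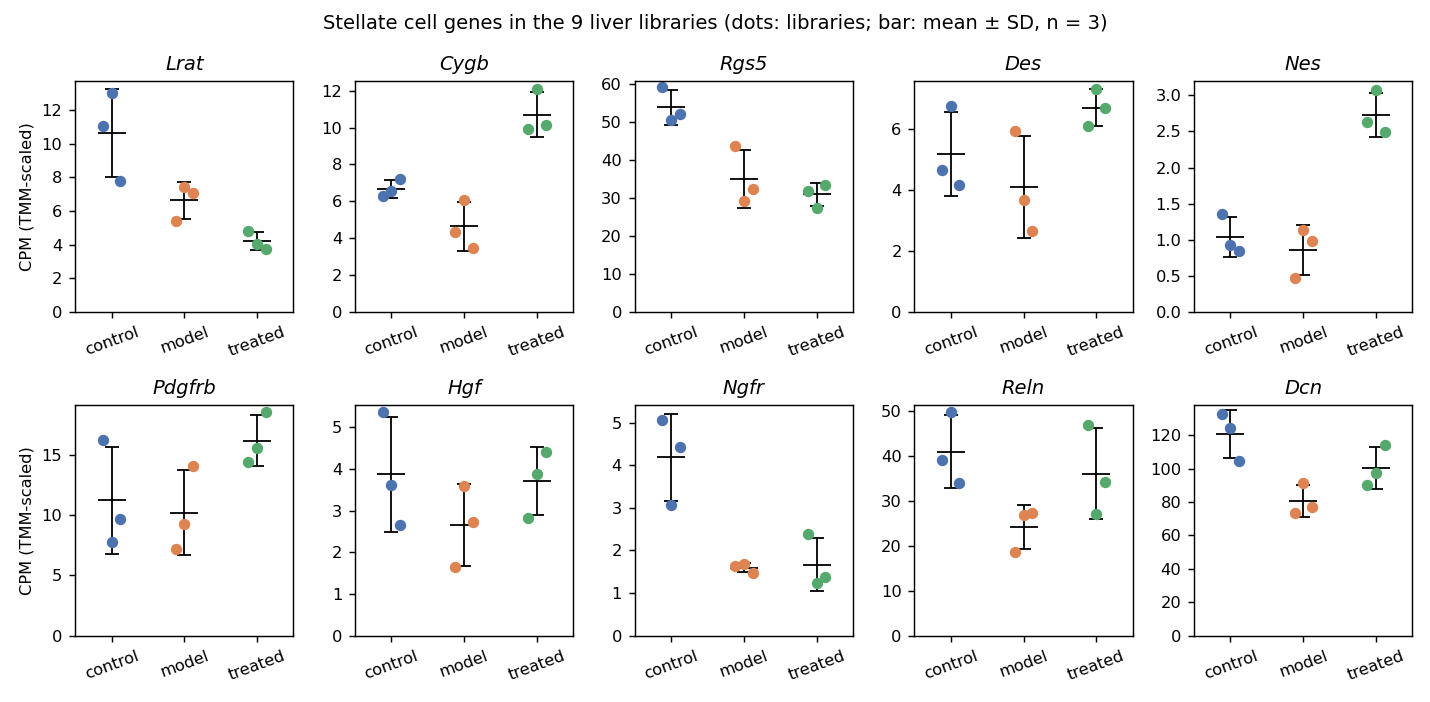
CPM of each stellate cell gene (vertical axes, each starting at 0) in the control, model and treated groups, with dots for libraries and bars for the mean ± SD of 3 libraries. Lrat steps down from 10.6 to 6.63 to 4.20 CPM, whereas Cygb and Nes are highest in all 3 treated libraries.

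Lrat encodes lecithin retinol acyltransferase, the enzyme that esterifies retinol for storage, and lies at chr3:82892579-82903973. It read 11.1, 13.0 and 7.80 CPM in the controls, 5.38, 7.41 and 7.08 in the model libraries, and 4.81, 4.05 and 3.74 in the treated libraries. The 3 groups did not overlap and stood in the order control, model, treated. Treated libraries were 2.53-fold lower than controls (log2 fold change -1.34, SE 0.23, adjusted p = 0.00255, n = 3). This call was kept in all 16 alternative analyses. The intermediate steps did not pass the test: -0.68 (adjusted p = 0.192) for model against control and -0.66 (adjusted p = 0.0949) for treated against model. They were called in 0 and 1 of the 16 alternatives.

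Of the 25 other genes of vitamin A handling that were tested, edgeR called none in model against control (4 at an unadjusted p under 0.05, 2 by DESeq2, 0 by limma-voom). In treated against model 1 rose and 2 fell, and in treated against control 3 rose and 5 fell. Over all genes, edgeR called 1.12%, 9.65% and 17.8% in these 3 comparisons, and 13.9% had an unadjusted p under 0.05 in model against control. The list's medians lay near 0 (-0.014, -0.087 and -0.16). Cyp26b1, which breaks down retinoic acid, fell from 7.20 ± 3.57 CPM in controls to 0.767 ± 0.283 in treated libraries (SD, n = 3; 9.38-fold, adjusted p = 0.00223). Bco1, which cleaves carotene into retinal, rose 1.99-fold in treated against model (adjusted p = 0.00398) and 2.55-fold against control (adjusted p = 0.00038). Lipe, a lipase, fell 2.07-fold against control (adjusted p = 0.00101) and Bco2, a second carotene oxygenase, 2.32-fold (adjusted p = 0.00433). Rbp4, the carrier of retinol in plasma made mainly by hepatocytes, fell 1.59-fold in treated against control (adjusted p = 0.00801), a call lost on log2 FPKM (adjusted p = 0.074). The retinol receptor gene Stra6 was not among the genes tested.

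Cygb encodes cytoglobin, a haem protein of the globin family found in stellate cells, at chr11:116645595-116654313. Its levels were 6.29, 6.54 and 7.24 CPM in controls, 4.36, 6.09 and 3.46 in model libraries and 9.91, 12.1 and 10.1 in treated libraries. Each group was separate from the others, with the model libraries lowest and the treated libraries highest. It rose 2.31-fold in treated against model (log2 fold change 1.21, SE 0.22, adjusted p = 0.00666), a call kept in all 16 alternatives. Against control it rose 1.6-fold (0.68, SE 0.21) at an adjusted p of 0.0496, next to the threshold. That call was lost in 9 of 16 alternatives: with no filter, with the replicate block, without model replicate 1, and without each single control or treated library, up to an adjusted p of 0.15. Exons of Prcd overlap Cygb on the opposite strand, and Prcd reached at most 0.534 CPM in any library. Among the 6 other globins tested, Hba-a1, a red cell haemoglobin chain, fell 2.62-fold in treated against model (adjusted p = 0.0147), where 9.65% of all genes were called. In the other comparisons edgeR called none of the 6, with 2 at an unadjusted p under 0.05 and 2 by DESeq2 in model against control, and 1 by each in treated against control, where limma-voom also called 1.

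Rgs5 encodes a regulator of G protein signalling that is typical of pericytes, at chr1:169655501-169695813. Control libraries held 59.2, 50.5 and 52.1 CPM, model libraries 43.6, 29.1 and 32.3, and treated libraries 32.0, 27.5 and 33.3. All 6 model and treated libraries lay below the controls, and they overlapped each other. The gene fell 1.74-fold in treated against control (log2 fold change -0.80, SE 0.15, adjusted p = 0.00425), in every alternative as well. Model against control gave -0.62 (SE 0.15, adjusted p = 0.0789), and treated against model -0.18 (adjusted p = 0.524). Of 6 relatives in the R4 family that were tested, Rgs1 and Rgs2 rose and Rgs3 fell in both comparisons of the treated group. Of all genes, edgeR called 9.65% against model and 17.8% against control. Rgs3 fell 3.29-fold against control (adjusted p = 0.00385), and Rgs1 averaged 1.87 ± 1.66 CPM in controls and 15.2 ± 3.48 in treated libraries (adjusted p = 0.0148). The Rgs1 and Rgs2 calls against model were both lost without model replicate 1, model replicate 2 or treated replicate 3, that of Rgs1 also with no filter and that of Rgs2 without treated replicate 1. In model against control edgeR called none of the 6, with 0 at an unadjusted p under 0.05 and 0 by DESeq2 or limma-voom.

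Des encodes desmin, an intermediate filament protein of muscle that rodent stellate cells also make, at chr1:75360329-75368579. Controls held 4.65, 6.75 and 4.16 CPM, model libraries 5.92, 3.66 and 2.66, and treated libraries 6.08, 7.33 and 6.70. No comparison was called: -0.34 (adjusted p = 0.689) for model against control, 0.72 (adjusted p = 0.167) for treated against model and 0.37 (adjusted p = 0.441) for treated against control. The highest model value belonged to model replicate 1, where the 15 muscle markers summed to 236 CPM against at most 1.10 CPM in the other model libraries. Without it, treated against model read 1.08 (adjusted p = 0.0607). All 3 treated libraries carried muscle transcripts. The highest control value was in control replicate 2, where the smooth muscle genes Acta2 (8.11 CPM) and Myh11 (6.96 CPM) were also highest among controls. So were the other smooth muscle markers with a count, except Tagln (3.841 CPM) and Smtn (5.735 CPM), which were highest in control replicate 1. The part of muscle cells in the Des values was not tested.

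**Figure D2:**
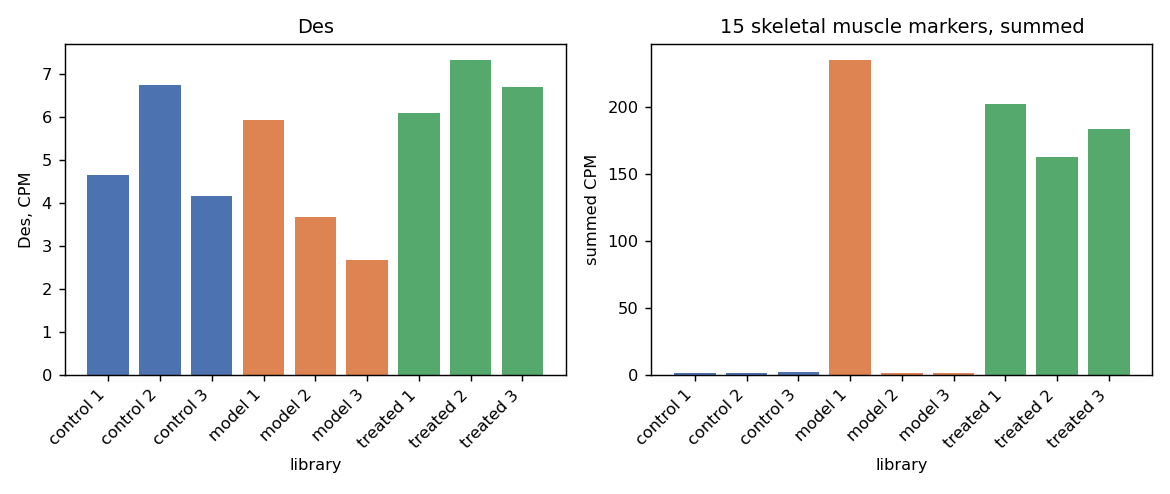
Des in CPM (left) and the summed CPM of 15 skeletal muscle markers (right) in each of the 9 libraries, as bars from 0. Muscle markers stand at 163 to 236 CPM in the treated libraries and in model replicate 1, and Des is higher in model replicate 1 than in the other model libraries.

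Nes encodes nestin, an intermediate filament protein of dividing and progenitor cells that activated stellate cells also make, at chr3:87971078-87980451. It read 1.36, 0.923 and 0.839 CPM in controls, 0.468, 1.13 and 0.980 in model libraries, and 2.62, 3.07 and 2.49 in treated libraries. The treated libraries lay above all others, on 158 to 201 counts each against 26 to 76. Nes rose 3.16-fold in treated against model (log2 fold change 1.66, SE 0.39, adjusted p = 0.0248) and 2.62-fold against control (1.39, SE 0.39, adjusted p = 0.0319). The first call was lost with the replicate block and without model replicate 1, model replicate 3 or any single treated library (adjusted p up to 0.0748). The second was lost with the block and without control replicate 2, control replicate 3 or any single treated library (up to 0.0974). The 3 treated libraries, highest in Nes, also carried muscle transcripts, with muscle markers at 163 to 203 CPM in sum. Model replicate 1 had the highest such sum, 236 CPM, and the lowest Nes value of the 9 libraries. The part of muscle cells in the Nes values was not tested.

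Of 7 filament partners tested, Vim, the vimentin of mesenchymal cells, was the 1 gene called. It read 15, 14.3 and 12.3 CPM in controls, 15.5, 22 and 16.2 in model libraries and 66.9, 86.9 and 82.3 in treated libraries. It rose 4.40-fold in treated against model (adjusted p = 6.8e-05) and 5.66-fold against control (adjusted p = 1.18e-05). In model against control edgeR called none of the 7 (1 at an unadjusted p under 0.05, 0 by DESeq2 or limma-voom). The medians of the 7 were 0.054, 0.94 and 0.77 in the 3 comparisons. Of all genes, 9.65% were called in treated against model and 17.8% in treated against control.

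Pdgfrb encodes the receptor for the B chain of platelet-derived growth factor, a mitogen of stellate cells, and lies at chr18:61045150-61085061. Controls held 16.2, 7.75 and 9.66 CPM, model libraries 7.22, 9.24 and 14.1, and treated libraries 14.4, 15.6 and 18.6. Treated libraries were above all model libraries, by little in the case of model replicate 3, and overlapped control replicate 1. Neither difference was called (0.67, SE 0.30, adjusted p = 0.209 against model, and 0.53, SE 0.30, adjusted p = 0.268 against control). Model against control gave -0.14 (adjusted p = 0.902), and its sign turned without control replicate 1 (0.23) or model replicate 1 (0.056).

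Among the genes of the growth factor itself, Pdgfa, Pdgfb and Pdgfc rose in the treated libraries and Pdgfd was not called. Over all genes, edgeR called 5.21% as higher against model and 9.36% against control. Pdgfb, which encodes a ligand of this receptor, read 0.554, 0.404 and 1.25 CPM in controls, 0.882, 1.80 and 1.61 in model libraries and 6, 4.40 and 3.76 in treated libraries. Pdgfb rose 6.40-fold against control (adjusted p = 0.00279) and Pdgfa 4-fold (adjusted p = 0.000855), and both calls were kept in all 16 alternatives. Pdgfc rose 1.78-fold against control (adjusted p = 0.0276), a call lost with the block and without any single control library, treated replicate 1 or treated replicate 3. Against model, these 3 genes rose 3.30-fold (Pdgfb, adjusted p = 0.0337), 1.94-fold (Pdgfa, 0.0484) and 1.82-fold (Pdgfc, 0.0372). None of these calls against model remained with the replicate block or without model replicate 1. Model replicate 3 and treated replicate 1 were also needed by all 3 genes, and at least 1 gene lost its call without each other library. In model against control edgeR called none of the 6 genes of the list (1 at an unadjusted p under 0.05, 1 by DESeq2, 0 by limma-voom). Pdgfd (-0.36 against model and -0.33 against control) and the receptor gene Pdgfra were not called in any comparison. Pdgfra averaged 5.78 ± 0.125 CPM in controls, 4.57 ± 1.01 in model and 6.14 ± 0.623 in treated libraries.

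Hgf encodes hepatocyte growth factor, which stellate cells secrete and hepatocytes bind through the receptor Met, at chr5:16553495-16620152. Controls held 5.36, 3.61 and 2.65 CPM, model libraries 1.64, 3.6 and 2.73, and treated libraries 2.81, 3.89 and 4.42. The groups overlapped in each comparison, and none was called (-0.54, 0.48 and -0.06, with adjusted p of 0.556, 0.458 and 0.938). In treated against control the sign turned without control replicate 1 (0.24) or treated replicate 1 (0.10). Gm43489, an unspliced model on the same strand, overlaps Hgf exons and reached at most 0.645 CPM.

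A list of 14 genes held the receptor, proteases and inhibitors that control the activation of Hgf and, outside these roles, Mst1, Mst1r and Plaur. Of the 14, edgeR called none in model against control (3 at an unadjusted p under 0.05, 1 by DESeq2, 0 by limma-voom). In treated against model 2 rose and 2 fell, where edgeR called 9.65% of all genes. In treated against control 2 rose, Plaur among them, and 4 fell, Mst1r among them, where it called 17.8%. The 4 became 1 with the replicate block, with only the 2 groups compared, and without control replicate 1, control replicate 2, model replicate 2 or model replicate 3, and 2 with no filter, on log2 FPKM and without model replicate 1 or any single treated library. The 2 that fell against model became 5 with DESeq2, and 1 with the block, on log2 FPKM and without model replicate 1, model replicate 3 or any single treated library. Plau, the urokinase protease, rose 4.46-fold in treated against model (adjusted p = 0.0027) and 7.38-fold against control (adjusted p = 0.000315). Its receptor gene Plaur rose as well, from 0.393 ± 0.162 CPM in controls and 0.660 ± 0.433 in model libraries to 7.16 ± 1.53 in treated libraries (adjusted p = 0.000742 and 0.00349). Hgfac, the liver's own activator of Hgf, fell 1.64-fold in treated against model (adjusted p = 0.00809). Klkb1, plasma prekallikrein, fell 1.79-fold against control (adjusted p = 0.0013). Met averaged 46.7 ± 6.81, 50.6 ± 3.65 and 38.4 ± 2.97 CPM and was not called, with an adjusted p of 0.0598 in treated against model.

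Ngfr encodes the p75 neurotrophin receptor, which stellate cells share with nerve cells and glia, at chr11:95568818-95587735. It read 5.07, 3.06 and 4.42 CPM in controls, 1.64, 1.68 and 1.47 in model libraries and 2.37, 1.24 and 1.37 in treated libraries. Every model and treated library was below every control library, and the 2 lower groups overlapped. Its -1.39 in model against control (SE 0.33, adjusted p = 0.0774) was the lowest value of the 10 members in that comparison. In treated against control it fell 2.52-fold (log2 fold change -1.33, SE 0.33, adjusted p = 0.0171). The call was lost without control replicate 1, treated replicate 2 or treated replicate 3 (adjusted p up to 0.063). None of the 9 neurotrophin genes tested was called in edgeR, DESeq2 or limma-voom in any comparison, with 0, 1 and 2 at an unadjusted p under 0.05 in model against control, treated against model and treated against control. Of the glial markers, Sox10 was at 0 in 8 of 9 libraries, and the 7 markers summed to 3.21 to 5.69 CPM, with 0 of the 4 tested at an unadjusted p under 0.05 and 0 called by edgeR, DESeq2 or limma-voom in any comparison.

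Reln encodes reelin, a large secreted glycoprotein of neurons that stellate cells also release, at chr5:21884454-22344702. Controls held 39.1, 49.9 and 34.1 CPM, model libraries 18.5, 26.8 and 27.4, and treated libraries 47.0, 27.1 and 34.2. Model libraries were all below controls, and the treated libraries spread over both groups. No comparison was called: -0.76 (SE 0.23, adjusted p = 0.167), 0.57 (SE 0.23, adjusted p = 0.157) and -0.18 (SE 0.23, adjusted p = 0.644). Of the 10 genes of reelin reception and signalling, Fyn, a kinase that acts on the reelin adaptor, fell 1.82-fold in treated against control (adjusted p = 0.0139), a call lost on log2 FPKM and without control replicate 1 or treated replicate 1. Its call in model against control (2.03-fold lower, adjusted p = 0.0423) was lost in 13 of 16 alternatives, with each single library left out among them. In treated against control Nck2, an adaptor, and Rapgef1, an exchange factor for Rap1, both downstream of reelin, also rose, calls lost in 11 and 8 of 16 alternatives. Leaving out any library but treated replicate 2 ended that of Nck2, and leaving out control replicate 1 or 2, model replicate 3, or treated replicate 1 or 2 ended that of Rapgef1. In treated against model edgeR called none of the 10 (0 at an unadjusted p under 0.05, 0 by DESeq2 or limma-voom). Over all genes it called 1.12% in model against control, 9.65% in treated against model and 17.8% in treated against control. The receptor gene Vldlr was not called (12.8 ± 7.01, 10.9 ± 3.71 and 18 ± 6.09 CPM), nor was Lrp8, at most 1.17 CPM in any library.

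Dcn encodes decorin, a small leucine-rich proteoglycan that binds collagen and transforming growth factor beta, at chr10:97479609-97518143. It was the most abundant member, at 133, 124 and 105 CPM in controls, 73.2, 91.5 and 77.0 in model libraries and 89.9, 97.2 and 114 in treated libraries. The model libraries lay below the controls, and the treated libraries overlapped both. No comparison was called: -0.58 (SE 0.13, adjusted p = 0.0684), 0.32 (SE 0.13, adjusted p = 0.168) and -0.26 (SE 0.13, adjusted p = 0.202). Among 11 related proteoglycans tested, edgeR called none in model against control (2 at an unadjusted p under 0.05, 0 by DESeq2 or limma-voom). In treated against model Lum, Tsku and Bgn rose and none fell, and in treated against control Lum and Tsku rose. Over all genes, edgeR called 5.21% and 9.36% as higher in these comparisons. Lum, the collagen-binding lumican, read 6.54, 12.3 and 9.57 CPM in controls, 5.42, 8.06 and 7.70 in model libraries, and 22, 24.2 and 15 in treated libraries. It rose 2.89-fold against model (adjusted p = 0.00505) and 2.16-fold against control (adjusted p = 0.0134). Of these 3, Lum was the 1 call in treated against model that remained without model replicate 1. The Bgn call was also lost without model replicate 3, treated replicate 2 or treated replicate 3, and that of Tsku without model replicate 3 or any single treated library. Against control, Tsku was lost without control replicate 1 or 2 or treated replicate 1 or 2.

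**Figure D3:**
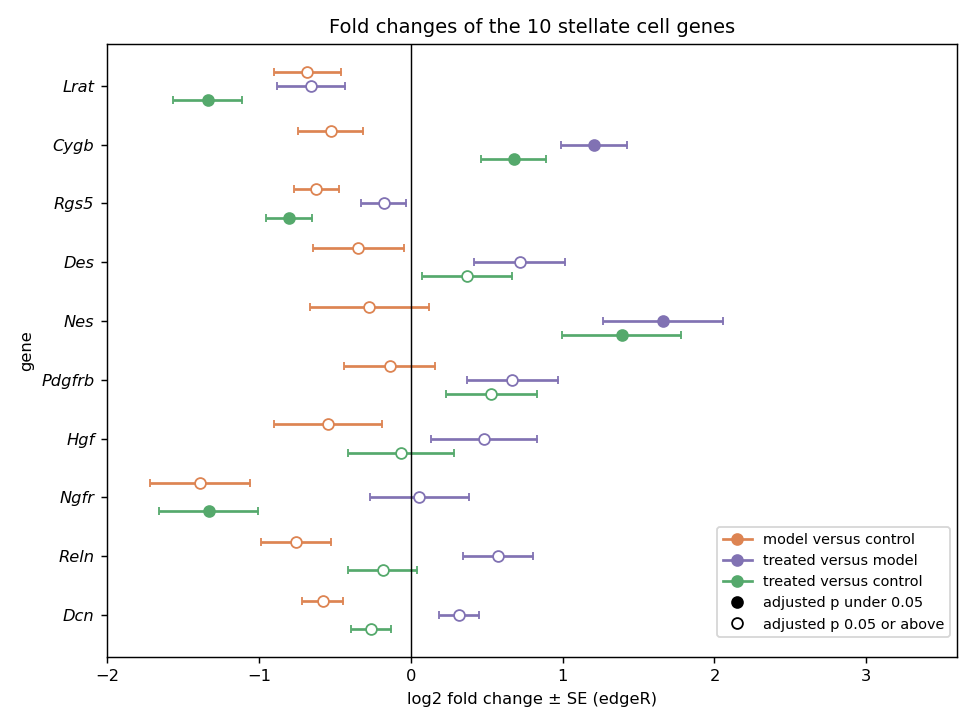
Log2 fold change ± SE from edgeR for each of the 10 stellate cell genes (horizontal axis) in the 3 comparisons, with filled points for an adjusted p under 0.05. All points of model against control lie below 0 and are open, and filled points are Lrat, Rgs5 and Ngfr below 0 and Cygb and Nes above 0.

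A pair of wider lists set the members beside other genes of resting and activated stellate cells, neither of which holds a member. Of 19 genes of resting cells, all tested, 18 read lower in model against control and edgeR called none (median log2 fold change -0.65). At an unadjusted p under 0.05 there were 11, as were 13.9% of all genes, and DESeq2 called 2 and limma-voom 0. In treated against control 6 fell (Vipr1, Gata4, Angptl6, Colec10, Ecm1 and Colec11) and Pparg rose, with a median of -0.72. Of all genes, 17.8% were called in that comparison. Pparg went the other way, at 4.43, 1.83 and 1.12 CPM in controls, 9.04, 5.83 and 7.22 in model libraries and 17.9, 16.9 and 14.3 in treated libraries. Vipr1, a receptor for vasoactive intestinal peptide, read 40.2, 44.6 and 39.2 CPM in controls, 29.6, 28.6 and 20.9 in model libraries and 10.5, 13.2 and 16.4 in treated libraries, groups that did not overlap. Gata4, a transcription factor on this list, fell 2.59-fold against control (adjusted p = 0.000247) and 2.18-fold against model (adjusted p = 0.00159). Colec10, a secreted collectin, fell 3.14-fold against control (adjusted p = 0.00217). In treated against model, Gata4, Vipr1 and Angptl6 fell and Adamtsl2 rose, with a median of -0.14, where 9.65% of all genes were called. The Angptl6 call was lost in 10 of 16 alternatives, among them without control replicate 2, any single model library, treated replicate 1 or treated replicate 2, and that of Adamtsl2 without model replicate 3 or treated replicate 3.

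Of 26 tested genes of activation and myofibroblasts, 14 rose and none fell in treated against model (median 1.73), and 13 rose and none fell against control (median 1.19). Without model replicate 1 the first count was 9, and without treated replicate 2 the second was 8. Over all genes in the main fit, edgeR called 5.21% as higher against model and 9.36% against control. Col1a1, the main fibrillar collagen chain, read 6.24, 5.86 and 4.70 CPM in controls, 7.62, 9.32 and 6.11 in model libraries and 47.8, 71.9 and 47.0 in treated libraries. It rose 7.23-fold against model (adjusted p = 6.8e-05) and 9.92-fold against control (adjusted p = 1.36e-05). Col1a2, the partner chain, rose 4.55-fold (adjusted p = 0.000773) and 3.78-fold (adjusted p = 0.000719). In model against control, Lgals3, a galectin that macrophages also make, rose 4.11-fold (adjusted p = 0.0112), and Sparc, a collagen-binding matrix protein, fell 1.90-fold (adjusted p = 0.0184). The Sparc call was lost on log2 FPKM and without any single model library. Acta2, the smooth muscle actin of myofibroblasts, was not called: it read 1.91, 8.11 and 0.690 CPM in controls, 2.88, 0.766 and 0.787 in model libraries, and 3.47, 4.49 and 3.19 in treated libraries. Timp1, an inhibitor of matrix proteases, read at most 0.231 CPM in controls and 3.77, 3.89 and 2.01 CPM in treated libraries, short of the threshold (adjusted p = 0.0558).

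**Figure D4:**
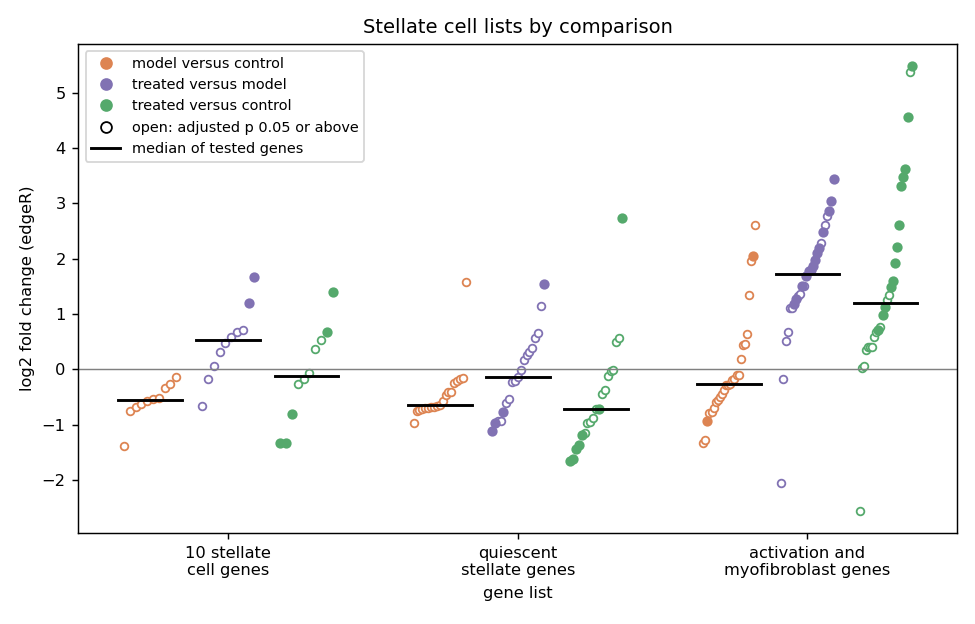
Log2 fold changes (vertical axis, edgeR) of the tested genes of 3 lists in the 3 comparisons, ordered by value, with filled points for an adjusted p under 0.05 and a bar at each median. The activation list has its medians at 1.73 and 1.19 in the comparisons of the treated group, and the resting list at -0.14 and -0.72.

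Markers of other cells that could share these transcripts were read in the same libraries. Portal fibroblast markers, 11 genes, summed to 23.9 to 26.2 CPM in controls, 19.9 to 26.6 in model libraries and 34.9 to 42.4 in treated libraries. Of the 10 tested, Eln, Mfap4 and Mgp rose in treated against model, and Entpd2 and Mgp rose against control, while edgeR called none in model against control (4 at an unadjusted p under 0.05, 1 by DESeq2, 0 by limma-voom). Vascular smooth muscle markers, of which Acta2 and Tagln also stand in the activation list, summed to 115 to 138, 111 to 135 and 85.1 to 122 CPM, most of it Mylk. The edgeR test called none of the 9 smooth muscle genes tested in model against control, treated against model and treated against control (1, 3 and 2 at an unadjusted p under 0.05; 0, 1 and 0 by DESeq2; 0 by limma-voom). It called none of 6 mesothelial genes either (3, 2 and 0 at an unadjusted p under 0.05, 0 by DESeq2 or limma-voom). Mesothelial markers summed to 12.1 CPM in control replicate 1 and 13.0 CPM in treated replicate 3, and to 2.45 to 7.21 CPM in the other libraries. Sinusoidal endothelial markers summed to 338 to 428 CPM in controls, 146 to 168 in model libraries and 76.6 to 117 in treated libraries. Of those 10 genes, 7 fell in model against control, 6 in treated against model and 10 in treated against control. Over all genes, edgeR called 0.596%, 4.44% and 8.47% as lower in these comparisons, and 0.519%, 5.21% and 9.36% as higher. Macrophage markers summed to 177 to 293, 264 to 327 and 300 to 511 CPM, and of 8 tested Cd68 rose in each comparison and Marco in treated against control. The part of these cells in the values of the stellate cell genes was not tested.

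Levels were compared between genes on the deposited FPKM, which is per length. In controls the order was Dcn (17.1 ± 2.32), Rgs5 (9.85 ± 1.18), Cygb (2.38), Pdgfrb (1.71), Lrat (1.64), Reln (1.43), Des (1.14), Ngfr (1.01), Hgf (0.446) and Nes (0.133). From Cygb down to Ngfr each gene overlapped the next. The first 4 places were the same in all 3 groups. Lrat stood in place 5 in control and model libraries and in place 7 in treated libraries, at 0.760 ± 0.127 FPKM, below Des (1.72 ± 0.131) and Reln (1.48 ± 0.460). Cygb in treated libraries, at 4.44 ± 0.478 FPKM, no longer overlapped Pdgfrb (2.85 ± 0.288). The last 3 in treated libraries, Hgf, Ngfr and Nes, overlapped from each to the next.

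The tested genes most like each member were found by the root mean square difference of log2 CPM, centred per gene, over the 9 libraries. Dcn was matched most closely, by C1galt1c1 (0.117) and Ptprk (0.123), against its own SD of 0.277. Rgs5 was nearest to Arhgap23 (0.134) and Cnnm3 (0.136), Cygb to Pea15a (0.136) and Shb (0.142), and Lrat to Foxq1 (0.157) and Gm47789 (0.191). Tcf21, a transcription factor on the list of resting cells, was the second nearest to Pdgfrb (0.178), after Rpl13-ps6 (0.157). Nes was nearest to Fstl1 (0.213) and Hey1 (0.214), with an own SD of 0.847, and Ngfr to Gm6035 (0.183) and Tspan7 (0.262). The nearest to Hgf were Dnaja4 (0.182) and Pck1 (0.191), to Des Gm15122 (0.194) and Bcl7c (0.197), and to Reln Akr1b8 (0.200) and Gm21811 (0.207). With 9 libraries and 18113 genes to search, such likeness is a description of these libraries.

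The deposited transcript table divided the counts of 7 members between annotated transcripts, and Lrat, Cygb and Ngfr had 1 each. Pdgfrb has 2 coding transcripts, of 24 exons (5423 bases) and 23 exons (5407 bases), and in 8 of 9 libraries all its counts stood on 1 of them. The shorter took all counts in control replicates 2 and 3 and model replicate 2, and the longer in the other 5. In treated replicate 3 the split was 194 counts on the longer and 986 on the shorter. Libraries of each group stood on either transcript. Nes showed the like: its transcript of 5 exons had counts in control replicate 1 (48 of 76) and treated replicate 3 (120 of 158) and in no other library. Hgf had counts on its transcript of 18 exons in control replicate 1 (39) and model replicate 2 (59) alone, with 63.0% to 100% on that of 19 exons. The leading transcript took at least 99.3% of Rgs5, 94.8% of Reln and 92.8% of Des counts in each library. The 2 coding transcripts of Dcn, both 1758 bases, divided its counts with 62.7% to 94.8% on the first. The gene counts used above sum over transcripts.

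**Figure D5:**
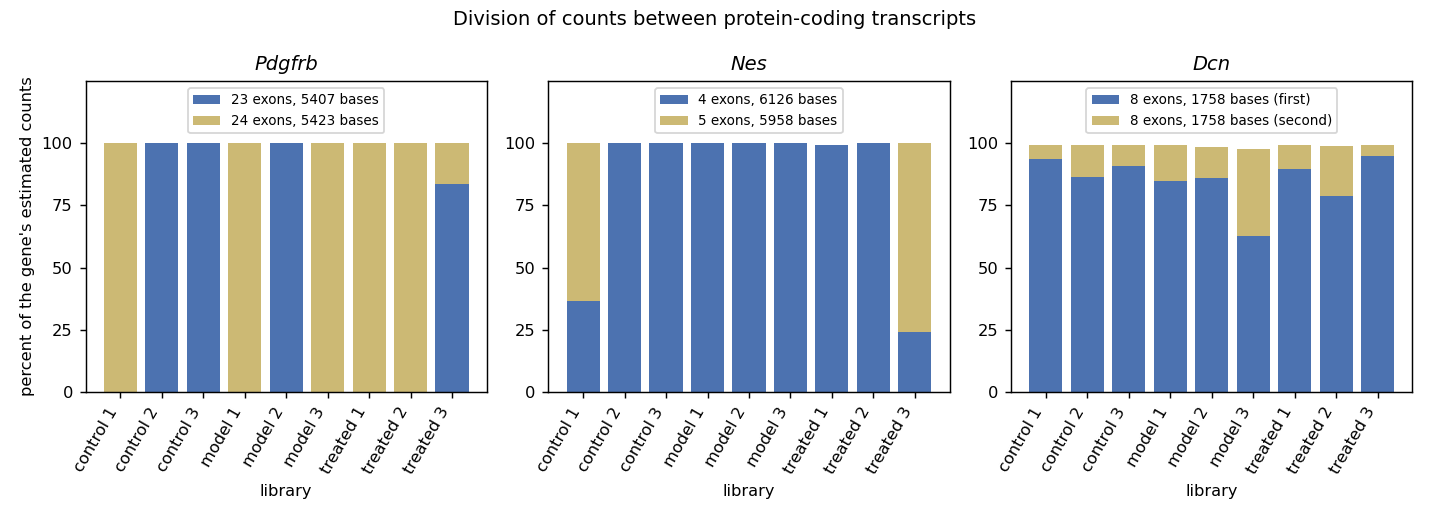
Percent of the estimated counts of Pdgfrb, Nes and Dcn (vertical axis) on each coding transcript in the 9 libraries, as stacked bars; the remainder lies on transcripts with a retained intron. Pdgfrb stands on 1 transcript in 8 libraries and is split in treated replicate 3, with members of each group on either.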

How the data were processed

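Per the file headers, the authors deposited FPKM (per length and library size) and estimated counts, each for genes and for transcripts. The estimated counts are whole numbers, so none was rounded further. HISAT2, without a version, is named in the submitters' processing notes. Which quantifier and annotation were used, and whether strand was counted, is not given in the sources used here. How reads of overlapping genes were assigned is likewise not given, so values of such genes are uncertain. The coordinates are GRCm38, and the spans of all 10 members equal those of GENCODE M21.

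Gene counts were tested with the quasi-likelihood test of edgeR 4.0.16 in R 4.3.3 (robust fit, TMM scaling), in 1 fit of 9 libraries, on genes kept by filterByExpr (minimum count 10, minimum total 15), with Benjamini-Hochberg adjustment over 18113 genes in each of 3 comparisons. Levels are given per library or as mean ± SD (n = 3). Alternatives, 16 in all, used DESeq2 1.42.0, limma 3.58.1 (voom, and trend on log2 of FPKM + 0.1 where mean FPKM was at least 0.1), other scaling, no filter, the 2 groups compared alone, a replicate block and each library left out. The procedure was also tested on simulated data, for model against control, treated against model and treated against control in turn. Of 100 planted 2-fold changes it recovered 43, 51 and 56, and of 100 planted 4-fold changes 86, 82 and 85. No other genes were changed, whereas the data gave 202, 1748 and 3231 calls, so recovery in the comparisons of the treated group may differ. False calls numbered 10, 6 and 5. A 2-fold change in a member could thus go uncalled.

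The 10 members and the lists were chosen with earlier results of these data known. Named were all members, up to 4 called genes of smallest p per list and comparison, the members' ligands, receptors and partners whatever their test, and the 2 genes nearest in pattern to each member of at least 1 CPM (0.001 was added to CPM before logs). Genes listed in full where a count was small were chosen after their values were seen. So were Myh11, Tagln, Smtn, Sox10, Mylk, Prcd and Gm43489, given as markers or overlaps. Some genes named by the rule are not reported here.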

Additional observations from a re-analysis of the deposited data

How the results depend on the processing

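Over 16 alternatives, Lrat and Rgs5 in treated against control and Cygb in treated against model kept their direction and call. Members called in model against control, 0 in edgeR, numbered 4 with DESeq2 and 0 to 1 with 1 library left out. In treated against model, 2 members became 1 with the replicate block and 1 to 2 with 1 library left out. In treated against control, 5 became 3 with the block and 2 to 5 with 1 library left out. The cause was not tested. No sign of pairing by replicate number was seen: same-numbered libraries correlated at -0.0756 to 0.0716 in their deviations, and 0 of 9 pairs exceeded 0.1. Differently numbered libraries were not compared, so whether the libraries were paired cannot be told. The block lost Nes against model (adjusted p = 0.0528) and Nes and Cygb against control (0.065 and 0.0668), and turned Ngfr in treated against model to -0.0071. On log2 FPKM, signs turned for Rgs5 in treated against model (0.014) and for Reln (0.022) and Hgf (0.16) in treated against control. With 1 library left out, values of uncalled members that turned sign ranged from -0.45 to 0.23 for Pdgfrb and -0.51 to 0.022 for Nes in model against control, from -0.30 to 0.0096 for Rgs5 and -0.29 to 0.23 for Ngfr in treated against model, and from -0.28 to 0.24 for Hgf in treated against control. FPKM shifted the median of all genes to 0.044, 0.15 and 0.19 and the calls to 1564 higher and 401 lower (943 and 805 in edgeR) in treated against model, and to 3124 and 832 (1696 and 1535) against control. Over all genes, the 202 calls in model against control became 120 with the block, 868 with DESeq2 and 54 to 213 with 1 library left out. The 1748 in treated against model became 2755 with DESeq2 and 882 to 1660 with 1 library left out. Nes stood on 26 to 201 counts per library and Ngfr on 81 to 284, which limits the precision of both.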
